A study of Danio rerio with 80 samples.

Results

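The cyp1 family monooxygenases were followed as 3 rows of a count table with 32520 gene rows: *cyp1a* (ENSDARG00000098315), *cyp1b1* (ENSDARG00000068934) and *cyp1c2* (ENSDARG00000101789). They were picked by these Ensembl identifiers, with earlier results of these data known. All 3 passed the filter on low counts at both times. The counts came from whole zebrafish embryos of the 5D wild-type line, read by BRB-seq, a pooled RNA-seq method that counts messenger RNA by its 3′ end. Embryos had been dechorionated and kept in embryo medium with DMSO alone (control) or with DMSO and a compound. The compounds were BaP (benzo[a]pyrene) and derivatives of it that carry a methyl group at position 8 (8-MBaP) or at position 6 (6-MBaP). Each was given at 0.133, 1.33 or 13.3 µM, and embryos were sampled at 48 or 72 h post-fertilization (hpf). The solutions were not exchanged, so the concentrations are those dispensed at the start. Embryos sampled at 72 hpf had also been exposed for longer than those sampled at 48 hpf. No group carried a transgene or a mutation. BaP is a polycyclic aromatic hydrocarbon formed when organic matter burns. Each of the 20 groups had 4 libraries, lettered A to D, and each library was a pool of 6 embryos. Every compound and concentration had a plate of its own and the controls had 1 plate, so the spread between the 4 pools is that within 1 plate, and an effect of the plate cannot be told apart from an effect of the exposure. The 4 pools were those with the most RNA of 5 collected.

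The Cyp1 proteins are heme enzymes of the endoplasmic reticulum that add oxygen to flat aromatic molecules. Their genes are switched on by the aryl hydrocarbon receptor (AHR), which binds such molecules in the cytoplasm, moves to the nucleus, pairs with Arnt and binds short response elements near its targets. The enzymes then turn over the same molecules that activated the receptor, and some of the products bind DNA. In fish the family has a further branch, *cyp1d*, which is known for little or no induction by AHR ligands, and a *cyp1c* pair that mammals lack. In zebrafish, Ahr2 is the receptor through which most AHR ligands act.

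Total counts ran from 4838752 to 8779891 per library (median 6467821). A gene was tested at a time if it had at least 5 reads in at least 2 libraries, which kept 17794 genes at 48 hpf and 18423 at 72 hpf. "Called" genes are those that reached 0.05 or less in the quasi-likelihood F test of edgeR after Benjamini-Hochberg adjustment over all genes of that comparison. Levels are in CPM, a count scaled to a common library size, with TMM factors over all 80 libraries. Changes are on the log2 scale with a standard error from the fit, and intervals are unadjusted 95% normal intervals of 1 difference. The tissue markers of the whole embryo were present, with all 22 matched marker rows detected. The summed level of 4 skin keratin genes (*krt4*, *krt5*, *krt91*, *cyt1*), per library total, lay at 11478 to 12489 CPM at 13.3 µM 8-MBaP at 48 hpf against 18097 to 20358 CPM in controls, and at 7521 to 7882 against 15105 to 16228 CPM at 72 hpf. All 4 pools lay below every control pool in 6 of 9 exposed groups at 48 hpf and in 8 of 9 at 72 hpf, with BaP and 6-MBaP groups among them, and group means reached up to 18515 CPM and 14262 CPM. At 13.3 µM 8-MBaP the sum of 3 lens crystallin rows was lower (1156 to 1558 against 1672 to 1857 CPM at 48 hpf, 2039 to 2328 against 2634 to 3108 CPM at 72 hpf), and that of 2 neuronal genes was higher at 48 hpf only (564 to 599 against 456 to 521 CPM). Over the 9 exposed groups of a time, the lens sum lay below the controls in 8 at 48 hpf and 5 at 72 hpf, and the neuronal sum above them in 6 at 48 hpf. The sums of the vessel, liver, red blood cell and ear markers, and the 1 muscle marker, overlapped the controls at 13.3 µM 8-MBaP at both times. Over the 9 exposed groups of a time, the vessel sum lay above the controls in 2 at 72 hpf. The red blood cell sum lay above them in 1 at 48 hpf. The muscle marker lay above them in 1 at 48 hpf and below them in 1 at 72 hpf. The part of these shifts in the results below was not tested. In whole embryos, a change in the number of cells that express a gene and a change in the RNA per cell cannot be told apart.

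In control embryos the 3 genes were present at low levels. *cyp1a*, the main inducible enzyme of the family, held 4.56, 5.46, 5.81 and 4.36 CPM in pools A to D at 48 hpf and 6.25, 4.09, 3.92 and 4.47 CPM at 72 hpf. *cyp1b1*, which in mammals acts on estrogens and retinoids as well as on aromatic pollutants, held 3.42, 2.48, 6.33 and 3.63 CPM at 48 hpf and 4.39, 2.46, 1.88 and 1.15 CPM at 72 hpf. *cyp1c2* was close to the detection limit, with raw counts of 5, 0, 2 and 7 at 48 hpf and 7, 6, 7 and 9 at 72 hpf. The control pools of the 2 times overlapped for every member, and no difference between 72 and 48 hpf was called, at log2 differences of -0.13 ± 0.24 (adjusted p = 0.78) for *cyp1a*, -0.73 ± 0.31 (adjusted p = 0.080) for *cyp1b1* and 0.74 ± 0.60 (adjusted p = 0.41) for *cyp1c2*. In that comparison 0 of 3 members were called by edgeR, against 22.7% of 19211 genes tested over both times. None of the 3 had an unadjusted p under 0.05 except *cyp1b1*, which DESeq2 called (-0.71). *cyp1b1* was also called without control pool B of 48 hpf (-0.91) and without control pool A of 72 hpf (-1.12).

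The other 2 cyp1 rows of the table are no members. *cyp1c1* (ENSDARG00000101195) had 0 counts in all 80 libraries. For reads assigned to this row, that allows up to 0.00576 CPM over all libraries together. It lies next to *cyp1c2* in the RefSeq annotation of assembly GRCz12tu, with 0 genes between them, and is its close copy. How reads that fit both copies were counted is not given in the sources used here, so a value of *cyp1c2* may hold reads of *cyp1c1* and is uncertain in that respect. For the same reason the 0 counts set no limit on the expression of *cyp1c1*. *cyp1d1* (ENSDARG00000035569) held a mean of 6.22 ± 1.1012 CPM (SD, n = 4 pools) in controls at 48 hpf and 6.58 ± 1.08 CPM at 72 hpf. At 13.3 µM 8-MBaP it held 5.11 ± 1.42 CPM and 7.44 ± 0.471 CPM, and it was called in 0 of 18 exposures by edgeR, with log2 changes between -0.30 and 0.25.

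The 3 compounds differed in how far they raised the members, and no member was called lower in any of the 18 exposures. *cyp1a* was called higher in 15 of 18 exposures, *cyp1b1* in 11 and *cyp1c2* in 8. All 3 were called in 8 exposures, which were the 6 of 8-MBaP and BaP at 13.3 µM at both times. The share of all genes called in either direction was 2.47% at most. For 8-MBaP at the 3 rising concentrations, where 3 of 3 members were called, it was 0.433%, 0.691% and 1.54% at 48 hpf and 0.277%, 0.923% and 2.47% at 72 hpf. For BaP at the same concentrations, where 1, 2 and 3 members were called, it was 0.0112%, 0.0843% and 0.343% at 48 hpf and 0.0109%, 0.13% and 0.809% at 72 hpf. For 6-MBaP it was 0.0%, 0.0% and 0.253% at 48 hpf, where 0, 0 and 1 members were called, and 0.00543%, 0.00543% and 0.038% at 72 hpf, where 0, 1 and 2 were. At 0.133 and 1.33 µM 6-MBaP at 48 hpf edgeR called 0 genes of all those tested, while 1245 and 1136 had an unadjusted p under 0.05, and DESeq2 called 14 and 0.

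**Figure D1:**
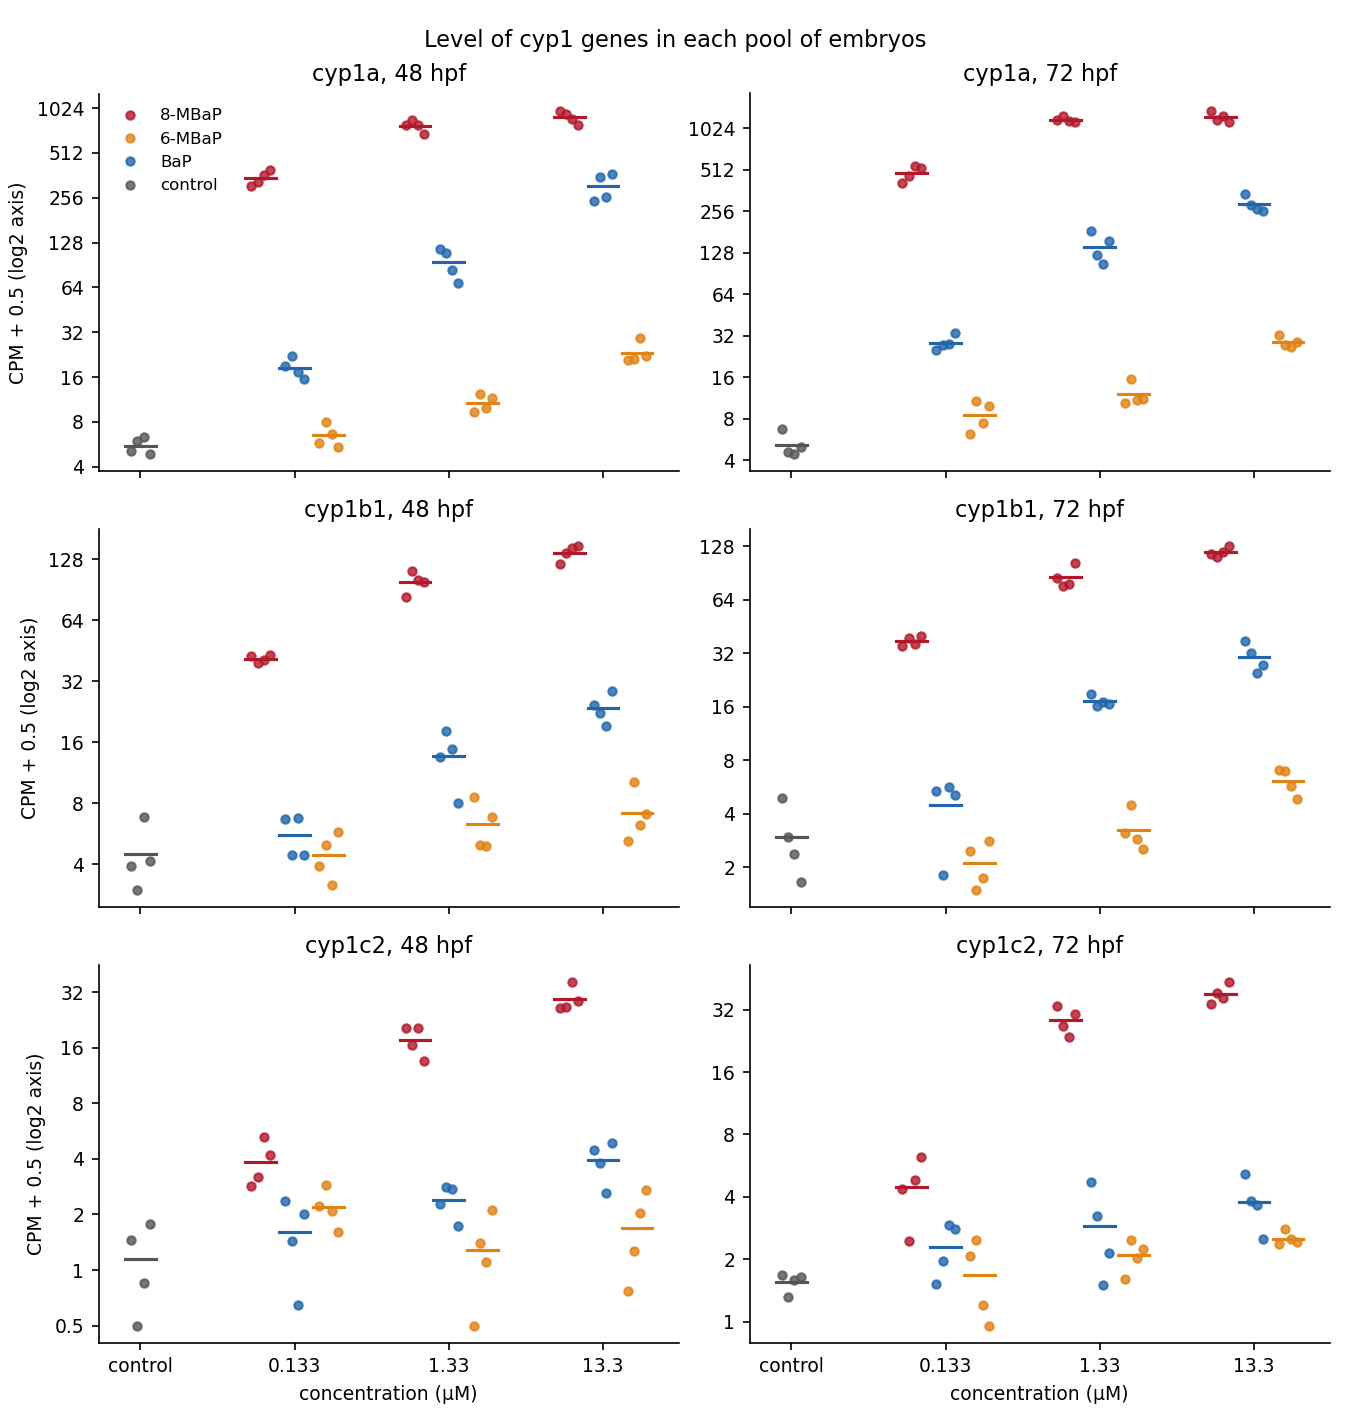
Level of *cyp1a*, *cyp1b1* and *cyp1c2* in each pool (points, CPM + 0.5 on a log2 axis) and the group mean (bar) against concentration in µM, at 48 hpf (left) and 72 hpf (right), for control, 8-MBaP, BaP and 6-MBaP. At every concentration the 4 pools of 8-MBaP lie above those of BaP and 6-MBaP for *cyp1a* and *cyp1b1*. For *cyp1c2* at 0.133 µM the pools of 8-MBaP overlap those of 6-MBaP at both times. They lie above those of BaP at 48 hpf and overlap them at 72 hpf. The group means of *cyp1c2* at 0.133 µM run from 1.11 to 3.99 CPM.

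*cyp1a* responded most to 8-MBaP. At 0.133 µM, the lowest concentration, it held 308, 328, 364 and 390.2 CPM at 48 hpf and 410.2, 457, 545 and 523 CPM at 72 hpf. Every one of these 8 pools lay far above every control pool, the highest of which held 6.25 CPM. The change from control was 6.10 ± 0.19 (adjusted p = 1.3e-39) at 48 hpf, a 68.4-fold rise, and 6.69 ± 0.17 (adjusted p = 2.2e-39) at 72 hpf. At 1.33 µM the pools held 782, 851, 792 and 690.2 CPM at 48 hpf and 1182, 1251, 1162 and 1132 CPM at 72 hpf, changes of 7.26 ± 0.19 and 7.99 ± 0.17. At 13.3 µM they held 983, 927, 865 and 791 CPM at 48 hpf and 1372, 1165, 1246 and 1144 CPM at 72 hpf, changes of 7.45 ± 0.19 (175-fold) and 8.05 ± 0.17 (266-fold). The pools of 1.33 and 13.3 µM overlapped at both times, and no pool of 0.133 µM reached them. Among all genes tested, *cyp1a* had the largest fitted rise in 7 of the 18 exposures and was among the 10 largest in 9.

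Under BaP the level of *cyp1a* climbed with each concentration. The pools held 18.4, 21.8, 16.9 and 15.0 CPM at 0.133 µM, 116, 108, 83.8 and 68.1 CPM at 1.33 µM and 242, 353, 259 and 368 CPM at 13.3 µM at 48 hpf. The 3 sets did not overlap with one another or with the controls. The changes were 1.82 ± 0.20 (adjusted p = 6.3e-10), 4.21 ± 0.19 (adjusted p = 5.2e-30) and 5.91 ± 0.19 (adjusted p = 8.1e-39) in that order. At 72 hpf the pools held 24.7, 27.0, 27.1 and 32.9 CPM, then 182, 122, 106 and 154 CPM, then 341, 284, 266 and 258 CPM, again with no overlap, for changes of 2.58 ± 0.18, 4.92 ± 0.18 and 5.96 ± 0.17.

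Under 6-MBaP *cyp1a* moved least. At 13.3 µM the pools held 20.4, 20.5, 28.8 and 21.6 CPM at 48 hpf and 31.8, 26.7, 26.2 and 28.1 CPM at 72 hpf, all above the controls, with changes of 2.17 ± 0.20 (adjusted p = 2.3e-13) and 2.60 ± 0.18 (adjusted p = 1.6e-17). At 1.33 µM they held 8.75, 11.8, 9.34 and 11.0 CPM at 48 hpf, also above every control pool, but the change of 1.01 (adjusted p = 0.11, 95% interval 0.60 to 1.42) did not pass the threshold. At 72 hpf the pools of that concentration held 9.86, 14.9, 10.5 and 10.7 CPM and *cyp1a* rose by 1.29 ± 0.20 (adjusted p = 1.9e-04). It was then the only gene of all those tested that was called. At 0.133 µM the pools overlapped the controls at both times, and neither the change of 0.24 (adjusted p = 0.89, 95% interval -0.21 to 0.68) at 48 hpf nor that of 0.81 (adjusted p = 0.17, 95% interval 0.41 to 1.21) at 72 hpf was called. DESeq2 called that of 72 hpf (0.82).

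In the order of the group means, *cyp1a* ran the same way at both times: 8-MBaP from 13.3 down to 0.133 µM, BaP at 13.3 and 1.33 µM, 6-MBaP at 13.3 µM, BaP at 0.133 µM, 6-MBaP at 1.33 and 0.133 µM, and control. Neighbours whose pools overlapped at both times were 8-MBaP at 13.3 and 1.33 µM, 6-MBaP at 13.3 µM and BaP at 0.133 µM, and 6-MBaP at 0.133 µM and control. 6-MBaP at 1.33 and 0.133 µM overlapped at 72 hpf only. 8-MBaP at 0.133 µM and BaP at 13.3 µM overlapped at 48 hpf, with means of 347 ± 36.8 CPM and 305 ± 63.9 CPM (SD, n = 4 pools). At 72 hpf they did not overlap, at 484 ± 61.8 CPM and 287 ± 37.5 CPM. These concentrations differ, and no test was made between them.

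*cyp1b1* followed the same compounds at a smaller size. In 8-MBaP at 0.133 µM it held 42.2, 38.7, 40.3 and 42.4 CPM at 48 hpf and 34.5, 38.3, 35.7 and 39.6 CPM at 72 hpf, rises of 3.36 ± 0.23 (adjusted p = 1.7e-20) and 3.94 ± 0.25 (adjusted p = 3.0e-21). At 1.33 µM it held 82.4, 112, 100.2 and 98.2 CPM and 84.2, 76.0, 78.1 and 102 CPM, rises of 4.62 ± 0.23 and 5.14 ± 0.24. At 13.3 µM it held 121, 137, 145 and 148 CPM and 114, 111, 118 and 127 CPM. These 3 sets of pools were apart from each other at both times, unlike those of *cyp1a*, whose 2 upper sets overlapped.

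In BaP at 13.3 µM *cyp1b1* held 23.9, 21.7, 18.7 and 28.0 CPM at 48 hpf and 36.7, 31.6, 24.1 and 26.8 CPM at 72 hpf, rises of 2.54 ± 0.23 (adjusted p = 9.4e-14) and 3.65 ± 0.25 (adjusted p = 1.6e-19). At 1.33 µM it rose by 1.73 ± 0.24 (adjusted p = 1.0e-06) and 2.79 ± 0.25 (adjusted p = 1.5e-13), to means of 13.2 ± 4.24 CPM and 16.7 ± 1.19 CPM. At 0.133 µM its pools overlapped the controls at both times and the changes of 0.37 (interval -0.15 to 0.89) and 0.74 (interval 0.18 to 1.30) were not called. In 6-MBaP it was called once, at 13.3 µM and 72 hpf, where the pools held 6.59, 6.45, 5.20 and 4.34 CPM against a control range of 1.15 to 4.39 CPM, so that the lowest exposed pool lay just under the highest control pool. The rise was 1.25 ± 0.27 (adjusted p = 0.035). Its call was lost without any 1 of 6 of the 8 libraries (0.99 to 1.29 on the log2 scale, adjusted p = 0.089 to 0.30), and when only the 2 compared groups were fitted (adjusted p = 0.24). The other 5 changes of *cyp1b1* under 6-MBaP lay between -0.55 and 0.74 and were not called.

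*cyp1c2*, of the branch that mammals lack, rose steeply between the 2 lower concentrations of 8-MBaP. At 0.133 µM its pools held 2.34, 2.68, 4.73 and 3.68 CPM at 48 hpf and 3.88, 1.96, 4.35 and 5.76 CPM at 72 hpf, all above the controls, with changes of 2.38 ± 0.56 (adjusted p = 0.0053) and 1.88 ± 0.38 (adjusted p = 0.0014). At 1.33 µM they held 19.9, 16.1, 19.9 and 12.996 CPM and 33.0, 26.0, 23.0 and 30.1 CPM, changes of 4.73 ± 0.53 (adjusted p = 4.3e-13) and 4.70 ± 0.35 (adjusted p = 1.0e-18). At 13.3 µM they held 25.6, 26.2, 35.7 and 28.2 CPM and 33.5, 38.0, 35.9 and 42.8 CPM, changes of 5.49 ± 0.53 and 5.13 ± 0.35. The 3 sets of pools did not overlap at either time. The size of a change at 48 hpf rests on 14 control reads in all, of which pool B gave 0. Without that pool the change at 0.133 µM was 1.95 and was no longer called (adjusted p = 0.060), nor was it when only the 2 compared groups were fitted (2.38, adjusted p = 0.0503).

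Under BaP *cyp1c2* was called only at 13.3 µM, where its pools held 3.96, 3.31, 2.10 and 4.40 CPM at 48 hpf and 4.66, 3.33, 3.17 and 2.00 CPM at 72 hpf. All 8 lay above the controls of their time, and the changes were 2.42 ± 0.56 (adjusted p = 0.0059) and 1.64 ± 0.38 (adjusted p = 0.0084). Both calls rested on single libraries. That of 48 hpf was lost without control pool B (1.99, adjusted p = 0.057) or C (2.22, adjusted p = 0.051) and when only the 2 compared groups were fitted (2.40, adjusted p = 0.062), and that of 72 hpf without exposed pool A (1.42, adjusted p = 0.093) or control pool B (1.53, adjusted p = 0.05004). At 1.33 µM the changes were 1.58 (adjusted p = 0.37, 95% interval 0.43 to 2.72) and 1.14 (adjusted p = 0.39, 95% interval 0.36 to 1.91). Under 6-MBaP edgeR called *cyp1c2* in 0 of 6 exposures, with changes between 0.14 and 1.42, of which that at 0.133 µM and 48 hpf and that at 13.3 µM and 72 hpf had an unadjusted p under 0.05. DESeq2 gave an adjusted p for only 2 of the 6 and called neither. The pools of the 6 exposures held from 0 to 2.40 CPM. At 13.3 µM and 72 hpf every exposed pool (1.86 to 2.29 CPM) lay above every control pool (0.82 to 1.18 CPM). In the other exposures to 6-MBaP the pools overlapped the controls.

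The compounds were then compared with each other at equal concentration and time, in 18 comparisons of each member whose differences do not involve the control libraries. 8-MBaP, with its methyl group at position 8, stood above unsubstituted BaP in *cyp1a* at all 3 concentrations. At 0.133 µM the log2 difference was 4.27 (adjusted p = 7.5e-35, 95% interval 4.01 to 4.54) at 48 hpf and 4.11 (adjusted p = 2.2e-32, 95% interval 3.86 to 4.36) at 72 hpf. It was smaller at higher concentrations, at 3.05 (interval 2.82 to 3.28) and 3.07 (interval 2.84 to 3.30) at 1.33 µM and 1.55 (interval 1.32 to 1.77) and 2.10 (interval 1.87 to 2.32) at 13.3 µM. *cyp1b1* stood higher under 8-MBaP in the same 6 comparisons, by 1.97 to 3.20. For *cyp1c2* the smallest differences were at the lowest concentration. The difference was 1.58 (adjusted p = 0.091, 95% interval 0.69 to 2.46) and 1.13 (adjusted p = 0.22, 95% interval 0.47 to 1.78) at 0.133 µM, neither of them called, against 3.16 (interval 2.44 to 3.88) and 3.57 (interval 3.01 to 4.12) at 1.33 µM and 3.06 (interval 2.42 to 3.71) and 3.49 (interval 2.99 to 4.002) at 13.3 µM. Between concentrations these differences were not tested against each other. Of the members, 2, 3 and 3 were called at the 3 rising concentrations at both times, beside 0.365%, 0.36% and 0.815% of all genes at 48 hpf and 0.195%, 0.923% and 0.814% at 72 hpf.

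The move of the methyl group from position 6 to position 8 went with the widest gaps in *cyp1a* and *cyp1b1* at each concentration and time. The 3 differences of a concentration and time are not independent. This gap is the sum of the other 2, so with BaP between the 2 derivatives it must be the widest. 8-MBaP exceeded 6-MBaP in *cyp1a* by 5.86 (interval 5.52 to 6.20), 6.25 (interval 5.95 to 6.54) and 5.28 (interval 5.03 to 5.53) on the log2 scale at the 3 rising concentrations at 48 hpf. At 72 hpf it did so by 5.88 (interval 5.57 to 6.19), 6.70 (interval 6.41 to 6.99) and 5.45 (interval 5.20 to 5.70). In *cyp1b1* the 6 gaps ran from 3.36 to 4.97. In *cyp1c2* they ran from 4.11 to 4.61 at 1.33 and 13.3 µM, while at 0.133 µM the gap was 0.96 (adjusted p = 0.68, 95% interval 0.16 to 1.77) at 48 hpf, not called, and 1.74 (adjusted p = 0.0079, 95% interval 0.99 to 2.50) at 72 hpf. The last call was lost without pool D of 8-MBaP (1.52, adjusted p = 0.087), or pool C (1.58, adjusted p = 0.067) or D (1.45, adjusted p = 0.12) of 6-MBaP, and when only the 2 compared groups were fitted (1.74, adjusted p = 0.20). Of all genes, 0.163%, 0.506% and 0.731% were called at 48 hpf, where 2, 3 and 3 members were, and 0.217%, 0.89% and 1.37% at 72 hpf, where 3 members were at each concentration.

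A methyl group at position 6 went with lower levels than in BaP itself. *cyp1a* was lower under 6-MBaP than under BaP in 6 of 6 comparisons, with differences of -1.58 (interval -1.95 to -1.22), -3.20 (interval -3.50 to -2.90) and -3.73 (interval -3.99 to -3.48) at the 3 rising concentrations at 48 hpf and -1.77 (interval -2.10 to -1.44), -3.63 (interval -3.92 to -3.34) and -3.35 (interval -3.60 to -3.10) at 72 hpf. *cyp1b1* was lower at 1.33 and 13.3 µM, with differences of -1.18 (adjusted p = 0.0020, 95% interval -1.60 to -0.76) and -1.80 (adjusted p = 7.5e-10, 95% interval -2.19 to -1.41) at 48 hpf and -2.62 (interval -3.12 to -2.12) and -2.40 (interval -2.78 to -2.01) at 72 hpf. The call at 1.33 µM and 48 hpf was lost without pool B of BaP (-1.01, adjusted p = 0.074) or when only the 2 compared groups were fitted (-1.18, adjusted p = 0.052). At 0.133 µM the differences of -0.37 (adjusted p = 0.83, 95% interval -0.88 to 0.14) at 48 hpf and -1.28 (adjusted p = 0.065, 95% interval -1.93 to -0.64) at 72 hpf were not called, and the second was called by DESeq2 (-1.29) and without pool B of BaP (-1.57, adjusted p = 0.0042), a pool that held far less *cyp1b1* than the other 3. For *cyp1c2* edgeR called none of the 6 comparisons, with values from -1.55 (interval -2.41 to -0.68) to 0.62 (interval -0.35 to 1.58). Of the 6, 3 had an unadjusted p under 0.05, and DESeq2 called that at 13.3 µM and 48 hpf (-1.56). The share of all genes called was 0.0169%, 0.0337% and 0.197% at 48 hpf and 0.174%, 0.0543% and 0.114% at 72 hpf, with 1, 2 and 2 members called at each time.

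**Figure D2:**
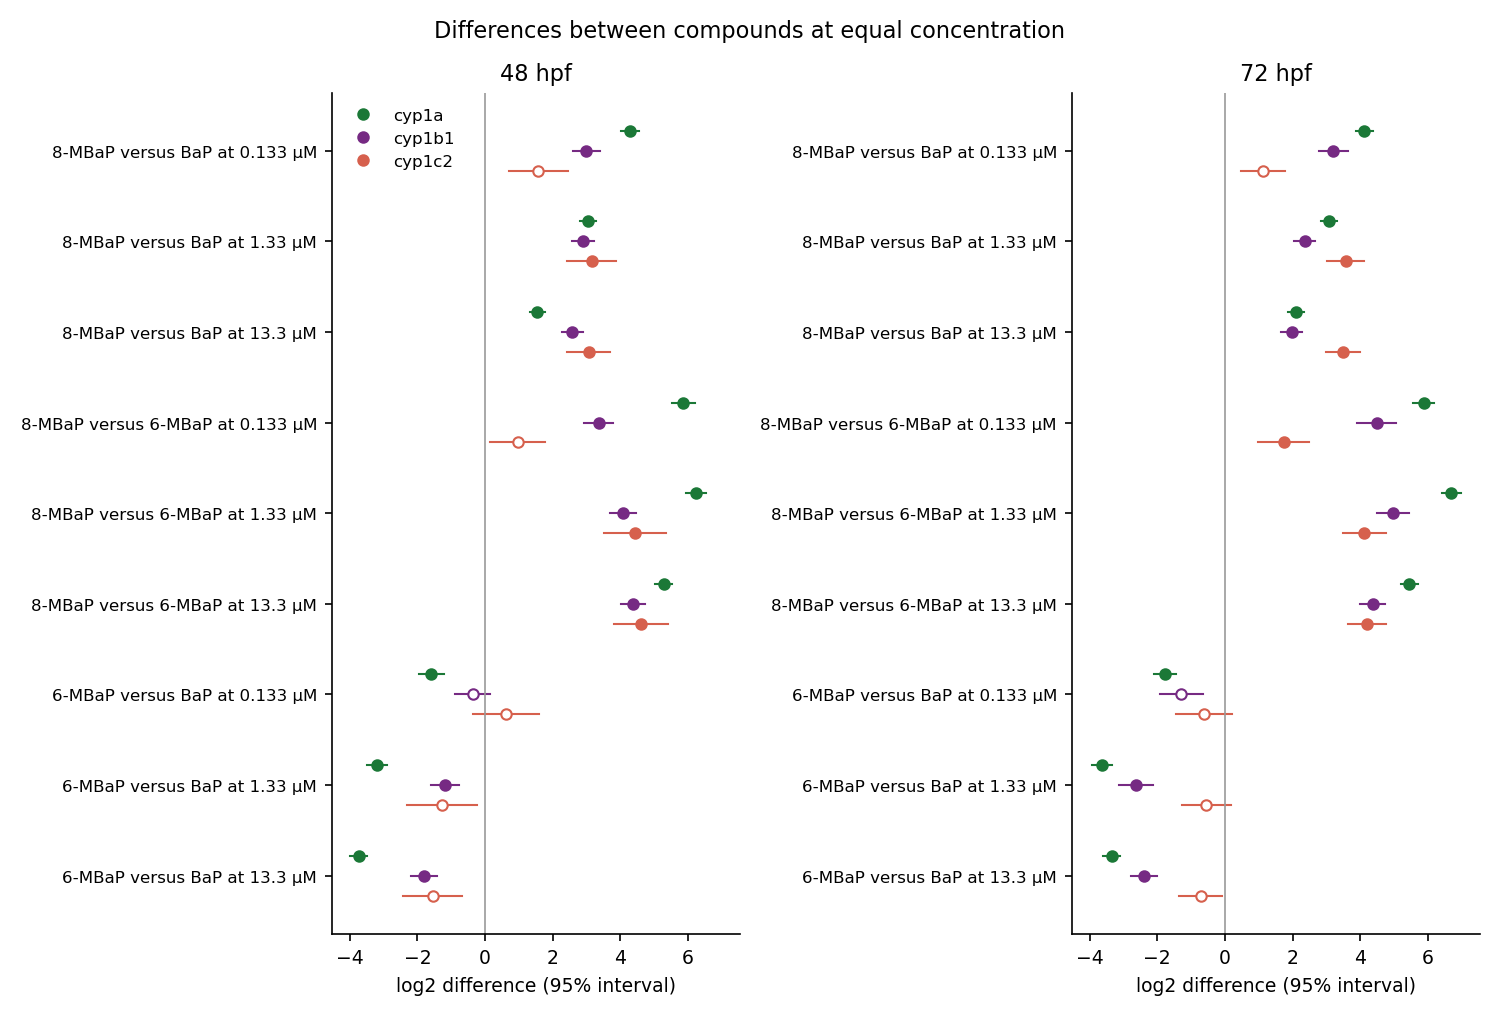
Log2 difference between 2 compounds at equal concentration (points, with unadjusted 95% intervals) for *cyp1a*, *cyp1b1* and *cyp1c2* at 48 hpf (left) and 72 hpf (right), filled where the adjusted p was 0.05 or under. The points of 8-MBaP against BaP move left with concentration for *cyp1a* (4.27 to 1.55 at 48 hpf) and lie further right at the highest than at the lowest concentration for *cyp1c2* (1.58 to 3.06), and all points of *cyp1a* for 6-MBaP against BaP lie left of 0.

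Within a compound, each concentration was tested against the next lower one. The step of 8-MBaP from 0.133 to 1.33 µM raised all 3 members, *cyp1a* by 1.16 ± 0.11 (adjusted p = 1.8e-10) and 1.29 ± 0.12 (adjusted p = 9.8e-12) at 48 and 72 hpf, *cyp1b1* by 1.26 ± 0.15 and 1.204 ± 0.16, and *cyp1c2* by 2.35 ± 0.32 and 2.82 ± 0.26. Among all genes this step called 0.0899% and 0.168%. The next step, from 1.33 to 13.3 µM, called 0 of 3 members by edgeR at either time, beside 0.0225% and 0.147% of all genes. For *cyp1a* the difference was 0.20 (interval -0.02 to 0.42) at 48 hpf and 0.07 (interval -0.16 to 0.29) at 72 hpf. These are unadjusted intervals from pools within 1 plate per concentration, so they set no firm limit on a further rise of *cyp1a*. For *cyp1b1* it was 0.49 (adjusted p = 0.63, 95% interval 0.21 to 0.78) and 0.48 (adjusted p = 0.19, 95% interval 0.18 to 0.77), and for *cyp1c2* 0.76 (adjusted p = 0.78, 95% interval 0.21 to 1.30) and 0.43 (adjusted p = 0.55, 95% interval 0.01 to 0.85). The intervals of these 2 genes lay above 0 and the pools of the 2 concentrations did not overlap, and DESeq2 called *cyp1b1* at 72 hpf (0.48). Both genes had an unadjusted p under 0.05 at both times.

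BaP raised *cyp1a* at both steps. It rose by 2.39 ± 0.14 and then 1.70 ± 0.12 at 48 hpf, and by 2.34 ± 0.13 and then 1.04 ± 0.12 at 72 hpf. *cyp1b1* rose at both steps too, by 1.36 ± 0.22 (adjusted p = 2.5e-04) and 0.80 ± 0.18 (adjusted p = 0.019) at 48 hpf and by 2.05 ± 0.22 (adjusted p = 1.6e-09) and 0.86 ± 0.17 (adjusted p = 0.0076) at 72 hpf. Its upper step was lost at 48 hpf without pool D of either concentration (0.63 and 0.70, adjusted p = 0.14 and 0.13), and at 72 hpf without pool B of 1.33 µM (0.83, adjusted p = 0.056) or pool A of 13.3 µM (0.74, adjusted p = 0.090). *cyp1c2* was called at neither step, with differences of 0.38 to 0.85. With 2 members called at each step, the share of all genes called was 0.118% and 0.348% at 48 hpf and 0.472% and 0.168% at 72 hpf. Under 6-MBaP edgeR called only *cyp1a*, at the upper step, where it rose by 1.16 ± 0.16 (adjusted p = 1.1e-05) and 1.32 ± 0.16 (adjusted p = 1.5e-07), beside 0.0618% and 0.0543% of all genes. DESeq2 also called *cyp1b1* there at 72 hpf (1.07). The lower step called 0 of 3 members and 0.0% and 0.076% of all genes, with 1131 genes at an unadjusted p under 0.05 and 0 called by DESeq2 at 48 hpf.

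**Figure D3:**
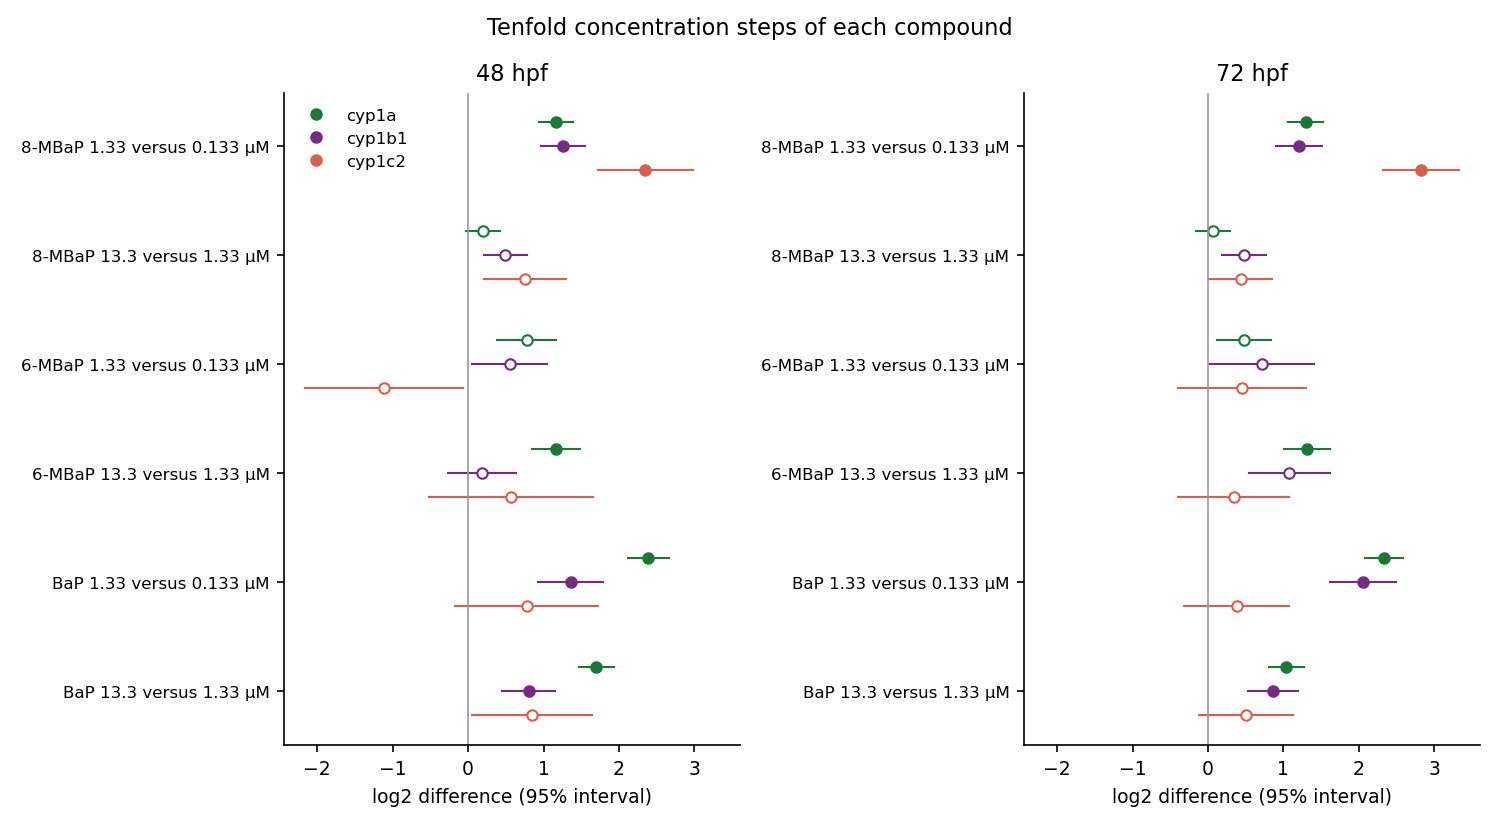
Log2 difference of each concentration from the next lower one of the same compound (points, with unadjusted 95% intervals) at 48 hpf (left) and 72 hpf (right), filled where the adjusted p was 0.05 or under. For 8-MBaP the lower step of *cyp1c2* (2.35 and 2.82) lies right of those of *cyp1a* (1.16 and 1.29), and the upper step of every member is an open point.

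Expressed as a share of the rise reached at 13.3 µM 8-MBaP, as a description with no test, the members differed at the lowest concentration. At 0.133 µM 8-MBaP *cyp1a* stood at 38.6 ± 4.15% (SD, n = 4 pools) of that rise at 48 hpf and 39.0 ± 5.04% at 72 hpf. *cyp1b1* stood at 27.6 ± 1.31% and 30.0 ± 2.02%, and *cyp1c2* at 9.60 ± 3.82% and 8.01 ± 4.29%. The pools of the 3 genes did not overlap on this scale. The control mean and the mean at 13.3 µM 8-MBaP were held fixed, so their own spread is not in these SDs. At 1.33 µM *cyp1a* had reached 87.3 ± 7.48% and 95.9 ± 4.12%, *cyp1b1* 70.4 ± 8.99% and 71.7 ± 10.3%, and *cyp1c2* 58.6 ± 11.8% and 73.9 ± 11.986%. BaP at 13.3 µM reached 33.9 ± 7.21% and 23.0 ± 3.06% for *cyp1a*, 14.3 ± 2.94% and 23.7 ± 4.81% for *cyp1b1*, and 9.90 ± 3.55% and 6.10 ± 2.98% for *cyp1c2*. 6-MBaP at 13.3 µM had group means between 1.92 and 2.76% for every member at both times. At 48 hpf they were 2.01 ± 0.453% for *cyp1a*, 2.02 ± 1.59% for *cyp1b1* and 1.94 ± 3.00% for *cyp1c2*. The pools of *cyp1c2* there ran from -1.33 to 5.49%.

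The make-up of the family was compared within each library by the log2 ratio of the counts of 1 member to those of *cyp1a*, with 0.5 added to each count, a value in which depth and scaling cancel but for that 0.5. In control pools A to D the ratio of *cyp1b1* to *cyp1a* was -0.41, -1.11, 0.12 and -0.26 at 48 hpf and -0.50, -0.72, -1.03 and -1.90 at 72 hpf. It was lower in every pool of 8-MBaP and of BaP, and differed from control by -2.67, -2.58 and -2.28 at the 3 rising concentrations of 8-MBaP at 48 hpf. Under BaP the difference was -1.42, -2.45 and -3.30 at the same time. The 12 such tests of *cyp1b1*, and that of 13.3 µM 6-MBaP at 72 hpf (-1.28), gave the smallest p that 4 pools against 4 allow (exact two-sided permutation test, p = 0.029, adjusted p = 0.047 over 36 tests). The sign was negative in all 18 exposures, but those of a time share their control pools and are not independent of each other. A gene that did not change would also have a lower ratio wherever *cyp1a* rose. Ratios of other genes to *cyp1a* were not tested, so these calls show only that *cyp1b1* rose less than *cyp1a* or did not rise.

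The ratio of *cyp1c2* to *cyp1a* fell in 9 of 18 exposures by the same exact permutation test (each p = 0.029, adjusted p = 0.047). Here too a lower ratio shows only that *cyp1c2* rose less than *cyp1a* or did not rise. At 72 hpf it averaged -2.05 ± 0.26 in controls (SD, n = 4 pools) and -6.98 ± 0.58, -5.41 ± 0.25 and -5.03 ± 0.26 at the 3 rising concentrations of 8-MBaP, so the lowest concentration had the lowest ratio. The pools of 0.133 µM did not overlap those of the 2 higher concentrations. Under BaP the order of the means was reversed, at -3.96 ± 0.45, -5.99 ± 0.67 and -6.47 ± 0.34. There the pools of the 2 higher concentrations overlapped (-6.63 to -5.40 and -6.96 to -6.17). *cyp1c2* itself was called under BaP at 13.3 µM only, so the fall of this ratio largely follows the rise of *cyp1a*. At 48 hpf the controls spread over -2.16, -6.07, -3.74 and -1.71, the low value being pool B with 0 reads, and 1 of 9 exposures was called, that of 0.133 µM 8-MBaP (-3.29). With 2 in place of 0.5 added to each count, 4 more were called at that time, at 1.33 and 13.3 µM 8-MBaP and BaP.

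**Figure D4:**
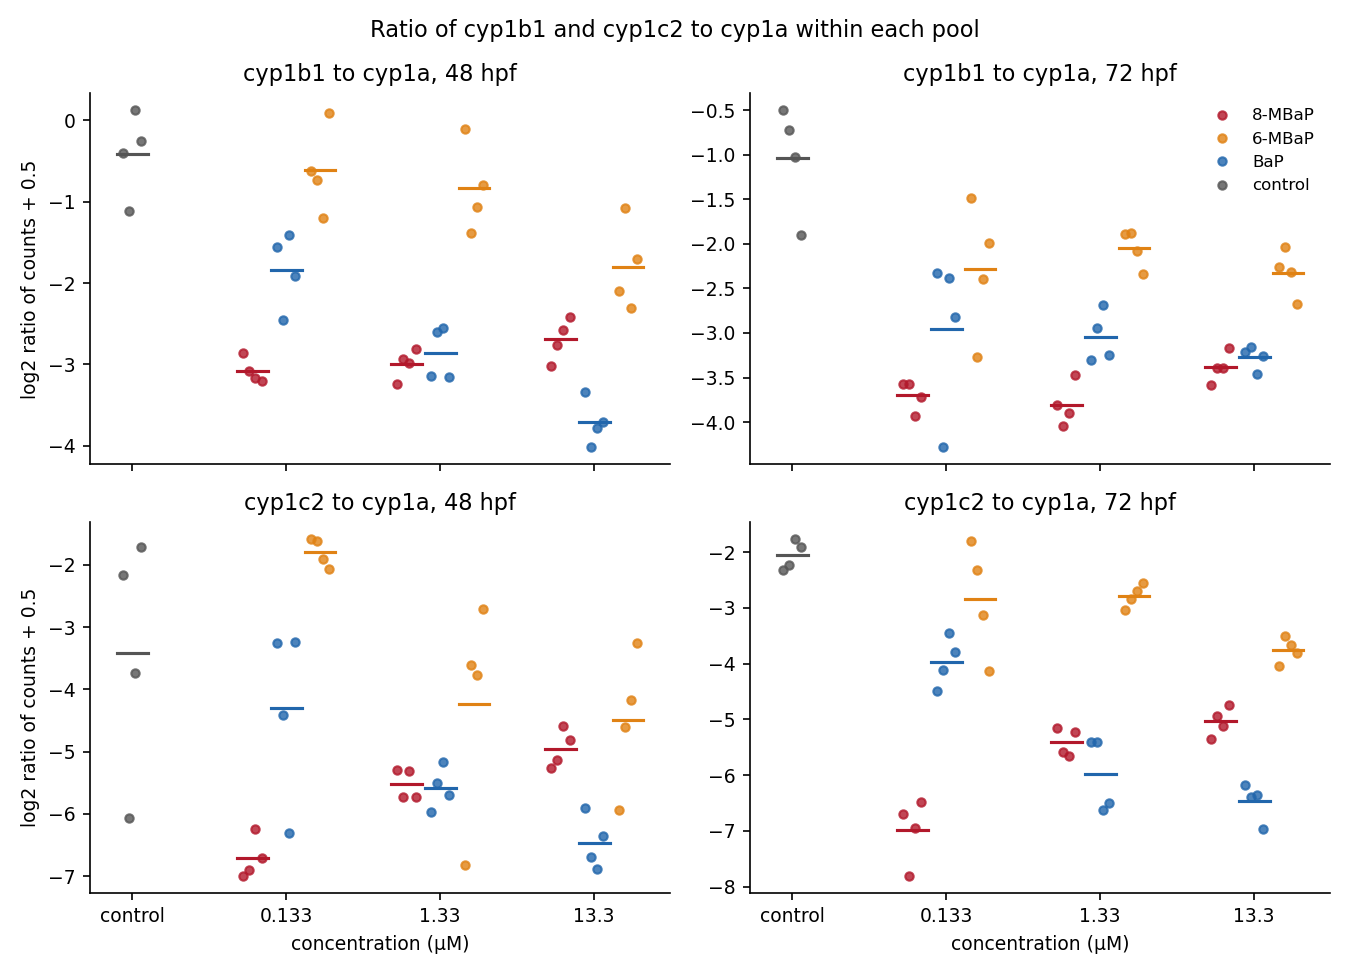
Log2 ratio of the counts of *cyp1b1* (top) and *cyp1c2* (bottom) to those of *cyp1a* in each pool (points, 0.5 added to each count) and group mean (bar) against concentration in µM at 48 hpf (left) and 72 hpf (right). The pools of 8-MBaP and BaP lie below the control pools in all 4 panels but that of *cyp1c2* at 48 hpf, where control pool B lies at -6.07.

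An interaction term asked whether the response to an exposure changed between 48 and 72 hpf, times that differ in age and length of exposure. No member was called in any of the 9 exposures. For *cyp1a* the fitted value lay above 0 in 9 of 9, though that at 13.3 µM BaP ran from -0.059 to 0.19 when each library was left out. The effect at 72 hpf minus that at 48 hpf had a median of 0.59 for *cyp1a* (0.04 to 0.76), and 5 of the 9 had an unadjusted p under 0.05, the smallest adjusted p being 0.45. The highest value was 0.76 (adjusted p = 0.91, 95% interval 0.21 to 1.32) at 0.133 µM BaP, and the lowest 0.04 (adjusted p = 1.0, 95% interval -0.49 to 0.56) at 13.3 µM BaP. For *cyp1b1* the median was 0.51 (-0.55 to 1.097), with 2 of 9 at an unadjusted p under 0.05, both in BaP, where it was 1.06 (adjusted p = 0.85, 95% interval 0.34 to 1.78) at 1.33 µM and 1.097 (adjusted p = 0.39, 95% interval 0.40 to 1.80) at 13.3 µM. For *cyp1c2* 7 of 9 values lay below 0 (median -0.36), 3 of them changing sign when 1 library was left out, and 0 of 9 had an unadjusted p under 0.05. The 9 values of a member share the control libraries of both times and are not independent of each other. DESeq2 called 0 of the 27 as well. Of all 19211 genes, 0.0677% were called for 1.33 µM 8-MBaP, 0.0989% for 13.3 µM 8-MBaP, 0.0104% for 13.3 µM BaP and 0.0% for the other 6, where edgeR called 0 genes, 969 to 1258 had an unadjusted p under 0.05, and DESeq2 called 0.

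Whether pools of a group that held more of 1 member also held more of another was tested with correlations, and none passed the threshold. Over the 80 libraries, the deviations of log2 CPM from the group mean correlated between *cyp1a* and *cyp1c2* at Pearson r = 0.30 (permutation p = 0.026, adjusted p = 0.077 over 3 pairs) and Spearman rho = 0.32 (permutation p = 0.020, adjusted p = 0.059). Without the 2 libraries farthest from the median of *cyp1a*, r was 0.27 (permutation p = 0.049, adjusted p = 0.15). It was 0.25 within the 40 libraries of 48 hpf and 0.39 within those of 72 hpf, neither past the threshold. *cyp1a* and *cyp1b1* gave r = 0.21 and rho = 0.18, and *cyp1b1* and *cyp1c2* gave r = 0.050 and rho = 0.11, with adjusted permutation p of 0.20 or above, and r of 0.15 and 0.029 without the 2 farthest libraries. The coefficient of variation had a median over the 20 groups of 13.9% for *cyp1a*, 22.6% for *cyp1b1* and 31.7% for *cyp1c2*. *cyp1c2* also had the fewest reads of the members. Spread from counting was not separated from spread between pools, here or in the correlations.

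The rest of the AHR pathway was read from a list of 34 symbols, of which 31 matched rows of the table. At 13.3 µM 8-MBaP 8 of 27 tested rows of this list were called higher at 48 hpf, and 8 of 27 at 72 hpf. Beside them, 1.54% and 2.47% of all genes were called in either direction. No row of the list was called lower in any exposure. The median change of the list was 0.18 at 48 hpf and 0.32 at 72 hpf, against 0.0016 and -0.0044 over all genes tested. Several of these genes were known from earlier results in these data, so the counts are not independent evidence of direction. At 13.3 µM BaP 4 rows were called at 48 hpf and 5 at 72 hpf, beside 0.343% and 0.809% of all genes. At 13.3 µM 6-MBaP it was 1 row at each time, beside 0.253% and 0.038%.

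By role, the receptor gene *ahr2* was called higher in 6 of 18 exposures, 5 of 8-MBaP and 1 of BaP. At 13.3 µM 8-MBaP it rose by 1.22 ± 0.18 (adjusted p = 2.6e-06) in the younger embryos and by 1.13 ± 0.18 (adjusted p = 1.3e-05) in the older ones. The receptor rows *ahr1a* and *ahr1b* held 5 and 106 reads over all 80 libraries. *ahr1a* was not tested, and *ahr1b*, tested at 72 hpf only, was called in 0 of 9 exposures by edgeR. Of the partners and chaperones, *arnt*, *arnt2*, *aip*, *hsp90ab1* and 2 rows matched to *PTGES3*, 0 were called in any exposure by edgeR. Those other than the sparsely read *arnt* changed by -0.31 to 0.18. Among the repressors, *tiparp*, an ADP-ribosyltransferase that dampens AHR signalling, was called in 8 exposures, with 1.55 ± 0.14 (adjusted p = 1.8e-13) at 13.3 µM 8-MBaP and 0.68 ± 0.14 (adjusted p = 0.0064) at 13.3 µM BaP at 48 hpf. *ahrra* and *ahrrb*, which compete with the receptor for Arnt, held 35 and 30 reads in all. *ahrrb* was not tested, and *ahrra*, at 0 reads in all control pools, was tested at 48 hpf only and called in 0 of 9 exposures by edgeR. Its log2 changes ran from 0.0 to 4.41, and with 0 reads in the controls none could lie below control. The reads were too few for the test to decide.

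Among the electron partners that P450 enzymes need, *cyb5a*, the gene of cytochrome b5, was called in all 6 exposures to 8-MBaP and in none to BaP or 6-MBaP. It rose by 0.87 ± 0.14 (adjusted p = 1.2e-04), 2.04 ± 0.14 (adjusted p = 3.3e-18) and 2.60 ± 0.14 (adjusted p = 2.2e-23) at the 3 rising concentrations at 48 hpf, while BaP at 13.3 µM gave 0.57 ± 0.15 (adjusted p = 0.061). The compounds were not tested against each other for *cyb5a*. The 2 rows matched to the P450 reductase *POR*, and *cyb5r3*, changed by -0.37 to 0.31 and were called in 0 exposures. Of the conjugating enzymes, *gstp1.2*, a glutathione transferase, was called in 8 exposures, at 1.42 ± 0.10 (adjusted p = 6.8e-18) for 13.3 µM 8-MBaP and 1.26 ± 0.10 (adjusted p = 3.8e-15) for 13.3 µM BaP at 48 hpf. *ugt1a1* was called in 2 and *gstp1.1* in 1, all in 8-MBaP at 72 hpf, and *nqo1*, *gsta.1*, *ephx1* and *sult1st1* in 0 by edgeR. The changes of *ephx1* ran from 0.08 to 1.32, all above 0. Those of *nqo1* (-0.46 to 0.33), *gsta.1* (-0.29 to 0.27) and *sult1st1* (-0.55 to 0.65) had both signs. *alas1*, the first enzyme of heme synthesis, was called in 2 exposures, at 0.56 ± 0.12 (adjusted p = 0.0027) for 13.3 µM 8-MBaP at 48 hpf. Of other known AHR targets, the row matched to the human symbol *FOXQ1* (ENSDARG00000030896) was called in 14 exposures, the most after *cyp1a*, with 3.69 ± 0.19 (adjusted p = 1.4e-26) at 13.3 µM 8-MBaP at 48 hpf. *foxq1b* was called in 6 and *wfikkn1*, which had 0 reads in the control pools at 48 hpf, in 3.

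**Figure D5:**
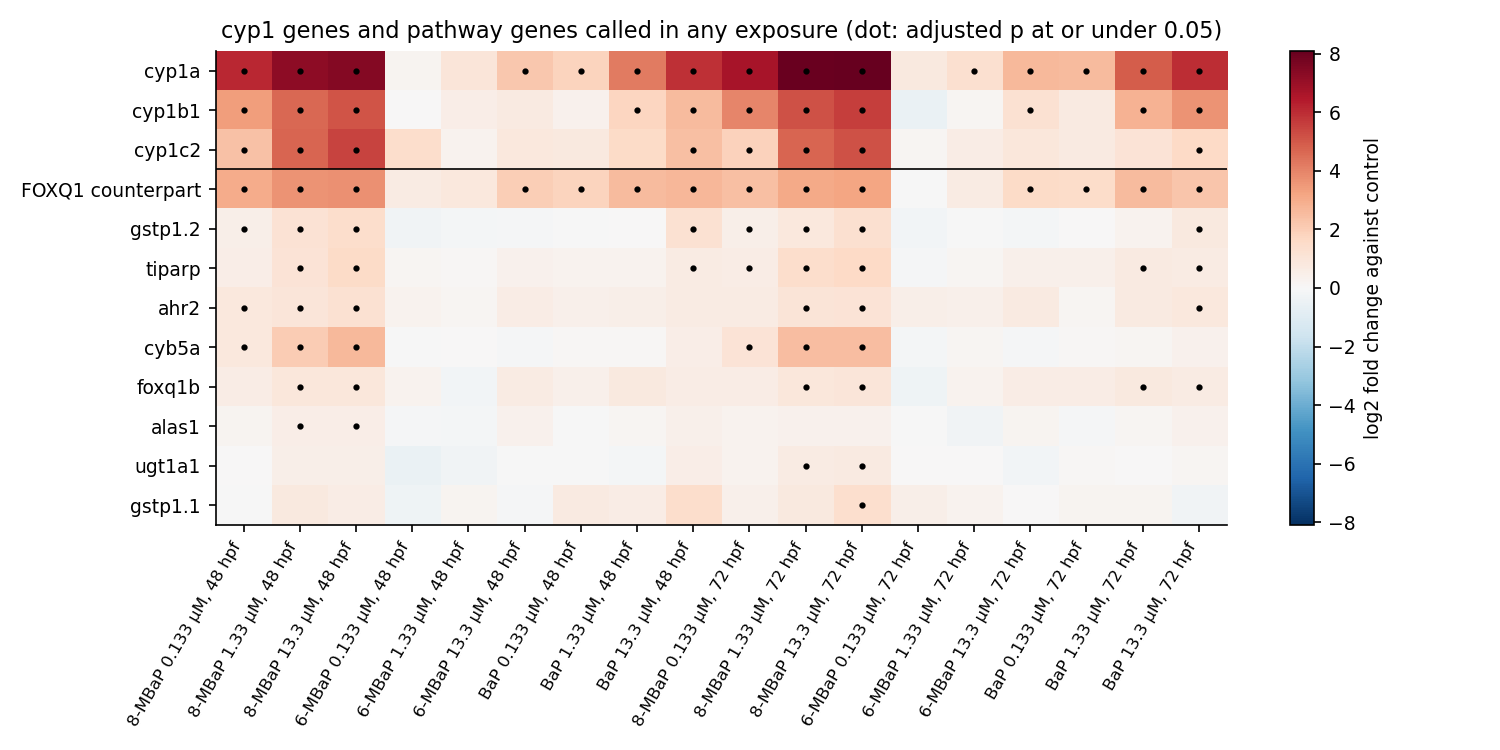
Log2 fold change against control (colour) of the 3 cyp1 members and of the listed pathway genes called in any exposure, in the 18 exposures, with a dot where the adjusted p was 0.05 or under. *wfikkn1*, at 0 in the 48 hpf controls, is left out. *cyp1a* has 15 dots and the *FOXQ1* counterpart 14, and *cyb5a* has dots only under 8-MBaP.

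Other cytochrome P450 genes were read in the same way. Of 81 other rows whose symbol begins with cyp, 61 were tested at 48 or 72 hpf, and 3 were called in any exposure. At 72 hpf 2 of 57 tested rows were called at 13.3 µM 8-MBaP, beside 2.47% of all genes, and 1 of 57 at 13.3 µM BaP, beside 0.809%. *cyp3a65*, a steroid and drug hydroxylase gene of the gut and liver, was called once, at 2.67 ± 0.49 (adjusted p = 1.1e-04) for 13.3 µM 8-MBaP at 72 hpf, as was *cyp2p7* at 1.62 ± 0.46 (adjusted p = 0.035). *cyp2aa8* was called lower once, at -0.68 ± 0.16 (adjusted p = 0.014) for 13.3 µM BaP at 72 hpf. The median change of these rows at 13.3 µM 8-MBaP was 0.06 at 48 hpf and 0.13 at 72 hpf.

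The genes whose changes over the 18 exposures were most like the mean of the 3 members were sought among 152 genes that were tested at both times and called in at least 3 exposures. The measure was Pearson's r over the 18 log2 fold changes, given as a description, since the exposures of a time share their 4 control libraries. The genes were also picked by calls in these same 18 exposures, so r is not independent of that choice. The highest r belonged to *sult6b1* (ENSDARG00000086826), a cytosolic sulfotransferase gene, at 0.987, with changes of 2.67, 1.90 and 0.43 at 13.3 µM 8-MBaP, BaP and 6-MBaP at 48 hpf. It was called in 11 exposures. Next came the row ENSDARG00000109310 (0.978), *si:ch211-207n23.2* (0.958), the row ENSDARG00000097714 (0.951), *ugt1b5* (0.948), *tiparp* (0.942), *si:dkey-7c18.24* (0.933) and the row matched to the human symbol *DLX3* (ENSDARG00000014626, 0.932). *ugt1b5*, a glucuronosyltransferase gene, changed by 1.95 at 13.3 µM 8-MBaP and 0.74 at 13.3 µM BaP at 72 hpf. The lowest r belonged to *muc5.1*, a mucin gene (-0.963), *linc.pou2af1* (-0.903) and *si:dkey-65b12.6* (-0.902). The change of *muc5.1* was -1.04 at 13.3 µM 8-MBaP and -0.15 at 13.3 µM BaP at 48 hpf.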

How the data were processed

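The authors deposited a table of raw read counts per Ensembl gene identifier for 80 BRB-seq libraries. Reads were mapped and demultiplexed by the sequencing company, and the aligner, counter, genome build and handling of multi-mapped reads are not given in the sources used here. Counts were fitted with the quasi-likelihood F test of edgeR 4.0.16 (R 4.3.3) with TMM factors, with the 10 groups of a time in 1 fit and all 80 libraries in the fit for time, over genes that had 5 or more reads in 2 or more libraries. P-values were adjusted by Benjamini-Hochberg within each of 58 comparisons, with a threshold of 0.05. Log2 ratios between members (0.5 added to each count) were compared by exact two-sided permutation tests, and deviations were correlated with 100000 permutations within groups on log2 CPM with a prior count of 2. Symbols came from the gene name table and from RefSeq (GRCz12tu). The members and gene lists were chosen with earlier results of these data known. Besides the members, the pathway genes called in any exposure, up to 5 other P450 genes and the 8 genes most and 3 least like the members were named. The pathway genes that were not called were named after their values were seen, to account for the list, except those of 1 symbol, which are not reported here. The labels do not say whether the pools of a group came from separate clutches, so p-values measure the spread between these pools. On simulated counts for 1.33 µM 8-MBaP against control at 48 hpf, the fit recovered 90.0% of 100 genes changed by a log2 fold of 1 and all of those changed by 2, among 16451 genes. The changed genes were drawn from the better read ones, and all genes were given the same dispersion. These shares therefore do not apply to rows with few reads, such as *cyp1c2* in controls. DESeq2 1.42.0, other size factors and filters, a letter block, fits of only the compared groups and the omission of each library were tried as alternatives.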

Additional observations from a re-analysis of the deposited data

Results flagged for a closer look

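In 3 of 60 sets of 4 pools (each member in each group), 1 pool lay far from the other 3 by Dixon's ratio of its gap to the range, at the 95% level, and chance gives about 1 in 20. At 13.3 µM 6-MBaP and 48 hpf, pool C held 28.8 CPM of *cyp1a* against 20.4 to 21.6 CPM in the other 3. At 1.33 µM 6-MBaP and 72 hpf, pool B held 14.9 CPM of *cyp1a* against 9.86 to 10.7 CPM. At 0.133 µM BaP and 72 hpf, pool B held 1.31 CPM of *cyp1b1* against 4.58 to 5.15 CPM, and without it the difference between 6-MBaP and BaP was called (-1.57, adjusted p = 0.0042 in edgeR's quasi-likelihood test).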

How the results depend on the processing

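Under the alternatives, 25 values lost a call and 27 gained one. Another 48 values, of 14 results, took the other sign, 47 of them with 1 library left out, and 0 of the 48 were called with or without the change. With no filter on low counts, calls were gained by *cyp1a* for 6-MBaP at 1.33 µM against control at 48 hpf (1.02) and at 0.133 µM at 72 hpf (0.81), and for its step to 1.33 µM at 48 hpf (0.78). *cyp1b1* gained 6-MBaP against BaP at 0.133 µM and 72 hpf (-1.28), the upper 8-MBaP step (0.49 and 0.48 at 48 and 72 hpf), the upper 6-MBaP step at 72 hpf (1.08), control 72 against 48 hpf (-0.73) and the change of the 13.3 µM BaP effect with time (1.101). *cyp1c2* gained 8-MBaP against BaP at 0.133 µM (1.58) and 6-MBaP against BaP at 13.3 µM (-1.55), both at 48 hpf. With filterByExpr the *cyp1b1* rise at 13.3 µM 6-MBaP and 72 hpf (1.25) was lost. When only the compared groups were fitted it was lost too (1.23), as were *cyp1c2* at 48 hpf in 0.133 µM 8-MBaP (2.38) and 13.3 µM BaP (2.40), *cyp1b1* in 6-MBaP against BaP at 1.33 µM and 48 hpf (-1.18) and *cyp1c2* in 8-MBaP against 6-MBaP at 0.133 µM and 72 hpf (1.74), and the upper 8-MBaP step of *cyp1b1* at 72 hpf (0.48) was gained, while the uncalled *cyp1b1* value at 0.133 µM 6-MBaP and 48 hpf turned to -0.0082. DESeq2 added *cyp1a* at 0.133 µM 6-MBaP and 72 hpf (0.82). In 6-MBaP against BaP it added *cyp1c2* at 13.3 µM and 48 hpf (-1.56) and *cyp1b1* at 0.133 µM and 72 hpf (-1.29). For *cyp1b1* it also added the upper steps of 8-MBaP (0.48) and 6-MBaP (1.07) at 72 hpf and control 72 against 48 hpf (-0.71). DESeq2 gave no adjusted p for 2 results called by edgeR, which are left out. With 2 added to each count, ratios to *cyp1a* gained calls for *cyp1b1* at 13.3 µM 6-MBaP and 48 hpf (-1.38) and 1.33 µM 6-MBaP and 72 hpf (-0.99), and for *cyp1c2* at 48 hpf at 1.33 and 13.3 µM 8-MBaP (-2.82 and -2.27) and BaP (-2.74 and -3.69). The causes of these changes were not tested.

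Leaving out 1 library changed a call in 10 results. For *cyp1b1*, the range was 0.99 to 1.64 in 13.3 µM 6-MBaP against control at 72 hpf, -1.57 to -1.10 and -1.38 to -1.01 in 6-MBaP against BaP at 0.133 µM and 72 hpf and at 1.33 µM and 48 hpf, 0.63 to 0.97 and 0.74 to 0.94 for the upper BaP step at 48 and 72 hpf, and -1.12 to -0.41 for control 72 against 48 hpf. For *cyp1c2* it was 1.95 to 2.95 in 0.133 µM 8-MBaP and 1.99 to 3.00 in 13.3 µM BaP against control at 48 hpf, 1.42 to 1.82 in 13.3 µM BaP against control at 72 hpf, and 1.45 to 2.14 in 8-MBaP against 6-MBaP at 0.133 µM and 72 hpf. The results that changed sign were uncalled throughout. Against control, *cyp1b1* ran from -0.18 to 0.32 in 0.133 µM 6-MBaP at 48 hpf and from -0.087 to 0.56 in 1.33 µM at 72 hpf, and *cyp1c2* from -0.29 to 0.88 in 1.33 µM 6-MBaP at 48 hpf and from -0.26 to 0.43 in 0.133 µM at 72 hpf. The upper 6-MBaP step of *cyp1b1* at 48 hpf ran from -0.042 to 0.39, and the lower BaP step of *cyp1c2* at 72 hpf from -0.077 to 0.65. The effect at 72 minus that at 48 hpf ran from -0.059 to 0.19 for *cyp1a* in 13.3 µM BaP and from -0.71 to 0.015 for *cyp1b1* in 1.33 µM 6-MBaP. For *cyp1c2* it ran from -0.60 to 0.40 and -0.94 to 0.072 in 1.33 and 13.3 µM 8-MBaP, -0.29 to 0.87 and -0.52 to 0.48 in 1.33 and 13.3 µM 6-MBaP, and -0.61 to 0.39 in 0.133 µM BaP. The ratio of *cyp1c2* to *cyp1a* in 1.33 µM 6-MBaP at 48 hpf ran from -1.69 to 0.055 relative to control. For ratios, only the size of the difference was computed anew without a library, with no p. Calls of ratios were therefore not tried in this way.

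Libraries of the same letter did not deviate together (mean r of 0.0025 at 48 hpf and 0.00037 at 72 hpf, with 0 of 45 pairs of groups above 0.1 for every letter at either time). The letter as a replicate block changed no call of a member, for example 6.10 for *cyp1a* at 0.133 µM 8-MBaP and 48 hpf, and the number of all genes called moved by over 1.5 times in 1 of 58 comparisons. That number moved so in 53 comparisons with no filter, 28 with DESeq2 and 24 with fits of the compared groups alone. For ratios the block cannot give a p below 0.125. Depth limits *cyp1c2* most, with 14 control reads at 48 hpf.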
